A study of Mus musculus with 19 samples.

Results

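The TOM complex, the translocase of the outer mitochondrial membrane, was followed through 9 genes of the count table, taken by their GENCODE M21 names from 41128 Ensembl genes. These were the receptors Tomm70a, Tomm20 and Tomm22, the channel genes Tomm40 and Tomm40l, the small subunits Tomm5, Tomm6 and Tomm7, and the cytosolic partner Tomm34. Of the 9 genes, 8 held enough reads to be tested among 16841 genes, and Tomm6 did not, with 0 to 10 counts per library.

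Nearly all mitochondrial proteins are made in the cytosol and enter the organelle through this complex. TOM20 recognizes presequences, TOM70 receives hydrophobic precursors such as the metabolite carriers from cytosolic chaperones, and TOM22 passes both on to TOM40, the barrel that forms the pore. TOM5, TOM6 and TOM7 help to assemble and hold the complex, and TOM34 is a chaperone-binding protein of the cytosol.

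RNA came from 3-month-old germline SCA17 knock-in (KI) mice on the C57BL/6 strain and from age-matched WT mice. In the KI mice the mouse Tbp gene carries an expanded polyglutamine tract, the mutation of spinocerebellar ataxia type 17, in every tissue, and the line was derived with an EIIa-Cre deleter. The cerebellum gave 4 KI and 3 WT libraries, and the striatum and the prefrontal cortex gave 3 of each genotype, 19 libraries in all. The comparisons address whether Tomm70a, which the study lists among its downregulated striatal genes from these same libraries, differed there alone among the TOM genes. They also address how the TOM genes differ between WT regions.

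Library totals ranged from 10639110 to 17431284 counts. Levels are CPM, read counts divided by the library size after TMM scaling, and between genes they are compared per kilobase of exon. Fold changes are log2 values of an edgeR quasi-likelihood fit, and a gene was called where its p, adjusted over all tested genes, was under 0.05. The counts do not show the repeat: Tbp, the targeted gene, had 38.1 to 42.3 CPM in the KI striatum and 39.5 to 49.6 CPM in WT, with a log2 fold change of -0.12 (adjusted p = 0.844). Defining markers followed the labelled tissue. The summed markers of striatal projection neurons, the principal cells of the striatum, had 5689 CPM or more in every striatal library and at most 1199 CPM elsewhere, and the 7 granule cell markers had 3059 CPM or more in every cerebellar library and at most 48.1 CPM elsewhere. The 8 markers of cortical excitatory neurons had 1293 CPM or more in every prefrontal library and at most 614 CPM elsewhere. The striatal markers were uneven in the KI prefrontal cortex, from 240 to 1199 CPM. The levels are those of whole tissue, in which fewer cells of a type and less RNA per cell cannot be told apart.

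The 3 receptor genes are shown by a stretch of 200 bases upstream of the start, because Tomm70a and Tomm20 had the largest differences between WT regions among the TOM genes and Tomm22 had no called one. The sequences are RefSeq windows of GRCm38, 5′ to 3′ on the gene's strand, and capitals mark a GC box or an ETS core, both described after them. The regions are chr16:57121503-57121702 for Tomm70a (+ strand), chr8:126945933-126946132 for Tomm20 (- strand) and chr15:79670657-79670856 for Tomm22 (+ strand).
Tomm70a: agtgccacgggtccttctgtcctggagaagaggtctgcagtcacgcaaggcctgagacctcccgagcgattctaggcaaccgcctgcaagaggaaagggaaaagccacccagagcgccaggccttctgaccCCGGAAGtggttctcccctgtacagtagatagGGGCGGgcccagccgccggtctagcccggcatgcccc
Tomm20: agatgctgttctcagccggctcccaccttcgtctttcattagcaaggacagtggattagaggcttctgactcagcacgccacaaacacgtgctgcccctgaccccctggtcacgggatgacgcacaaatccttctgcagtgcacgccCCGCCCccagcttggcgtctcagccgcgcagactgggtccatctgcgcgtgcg
Tomm22: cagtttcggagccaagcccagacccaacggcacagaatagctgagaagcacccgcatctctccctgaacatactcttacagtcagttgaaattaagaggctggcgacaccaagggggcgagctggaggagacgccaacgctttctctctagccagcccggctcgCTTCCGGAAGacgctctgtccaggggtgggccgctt

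Both strands were searched for 5 motifs. The GC box (GGGCGG or CCGCCC) occurred once in the Tomm70a window and once in that of Tomm20, and also in Tomm34 (4 and 3 matches in its 2 windows), Tomm40 (3) and Tomm5 (1). It is present in 29.8% of 32851 promoter windows of the same length. The ETS core (CCGGAAG or CTTCCGG) occurred once in Tomm70a and on both strands of 1 overlapping site in Tomm22, as well as once in each window of Tomm34, and 5.61% of all windows hold it. The TATA box (TATAAA or TTTATA), held by 10.2% of all windows, was in none of the windows of the 7 genes for which one was given (Tomm70a, Tomm20, Tomm22, Tomm40, Tomm5, Tomm6 and Tomm34). The CCAAT box (CCAAT or ATTGG, 29.5% of all windows) was found in Tomm40, with 4 matches, and in Tomm6, with 1, and the palindromic NRF1 core (0.639% of all windows) in none. These are matches of letters and no site was measured.

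In the striatum Tomm70a was lower in KI mice in every library, but it did not pass the threshold. Its level was 437, 552 and 456 CPM in the 3 KI libraries and 666, 612 and 602 CPM in the 3 WT libraries. The groups did not overlap, and replicate 2 was the highest of the KI libraries. Mean levels were 482 ± 61.6 CPM in KI and 627 ± 34.3 CPM in WT (SD, n = 3 each). The log2 fold change was -0.38 (SE 0.10, 95% confidence interval -0.58 to -0.18), 0.769 of the WT level, with an unadjusted p of 0.00109 and an adjusted p of 0.109 by edgeR. The exact two-sided permutation test gave p = 0.1, the smallest that 3 against 3 libraries allow. The call turned on the method: DESeq2 gave the same log2 fold change of -0.38 with an adjusted p of 0.0219. The study lists Tomm70a among its downregulated striatal genes, with calls made by Cuffdiff at an adjusted p under 0.05. Without KI replicate 2 the edgeR value was -0.49 with an adjusted p of 0.0260.

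**Figure D1:**
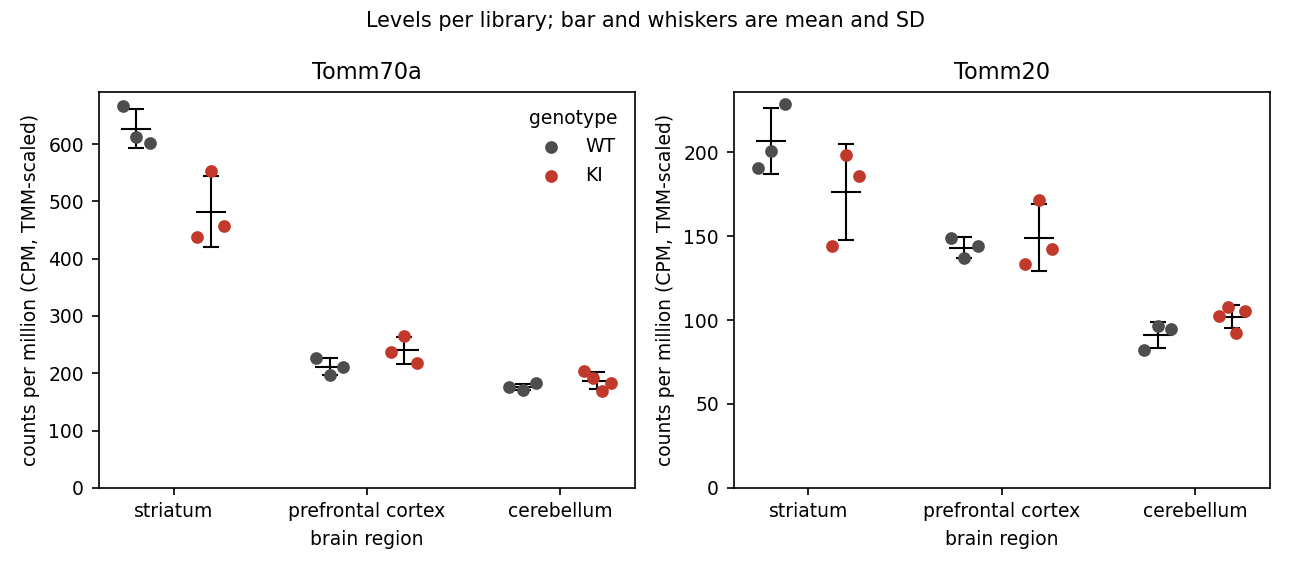
CPM of Tomm70a (left) and Tomm20 (right) in each library, by region and genotype; points are libraries (3 a group, 4 in the KI cerebellum), and bars with whiskers are the mean and SD. The striatal Tomm70a libraries stand at 437 CPM or higher and all others at 265 CPM or lower, and in the striatum the 3 KI points lie under the 3 WT points.

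Tomm20, the receptor of presequences, had the next lowest estimate in the striatum. Its level was 144, 199 and 186 CPM in KI and 191, 201 and 229 CPM in WT. KI replicate 2 alone lay inside the WT range, so the overlap of the groups rested on 1 library, and the log2 fold change of -0.23 (SE 0.12) had an adjusted p of 0.640. Tomm22 had 69.3, 81.1 and 84.3 CPM in KI and 75.8, 76.2 and 81.4 CPM in WT, a log2 fold change of 0.01 (SE 0.09). Its KI range enclosed that of WT.

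The channel and the small subunits showed no called change in the KI striatum. Tomm40, the pore, had 92.4, 89.9 and 87.2 CPM in KI and 84.3, 83.7 and 85.1 CPM in WT. All KI libraries were above all WT libraries, by a log2 fold change of 0.09 (SE 0.07, adjusted p = 0.826), in the opposite direction to Tomm70a. Tomm40l, a paralog of the pore gene, had a log2 fold change of -0.04 (SE 0.13), Tomm5 0.06 (SE 0.12), Tomm7 0.12 (SE 0.15) and Tomm34 0.05 (SE 0.11), each with overlapping groups and an adjusted p of 0.918 or more. Of these, Tomm7 had 53.2, 58.0 and 61.7 CPM in KI and 57.0, 58.6 and 43.3 CPM in WT, and its estimate rested on WT replicate 3, without which it was -0.0005. Tomm6 had 0, 3 and 7 counts in KI and 1, 5 and 5 counts in WT, too few to compare, and it shares 859 exonic bases with Gm21981 on the same strand.

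Counted together, 0 of the 8 tested TOM genes were called by edgeR in the striatum, where 0.582% of all tested genes were. Only Tomm70a of the 8 had an unadjusted p under 0.05 by edgeR, beside 1368 of all 16841 tested genes. DESeq2 called Tomm70a alone of the 8, against 1.27% of the genes to which it gave an adjusted p, and limma called 0. Groups did not overlap for 2 of the 8 genes, Tomm70a below and Tomm40 above, against 14.1% of all tested genes. The median log2 fold change of the 8 genes was 0.03, beside -0.01 over all tested genes.

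**Figure D2:**
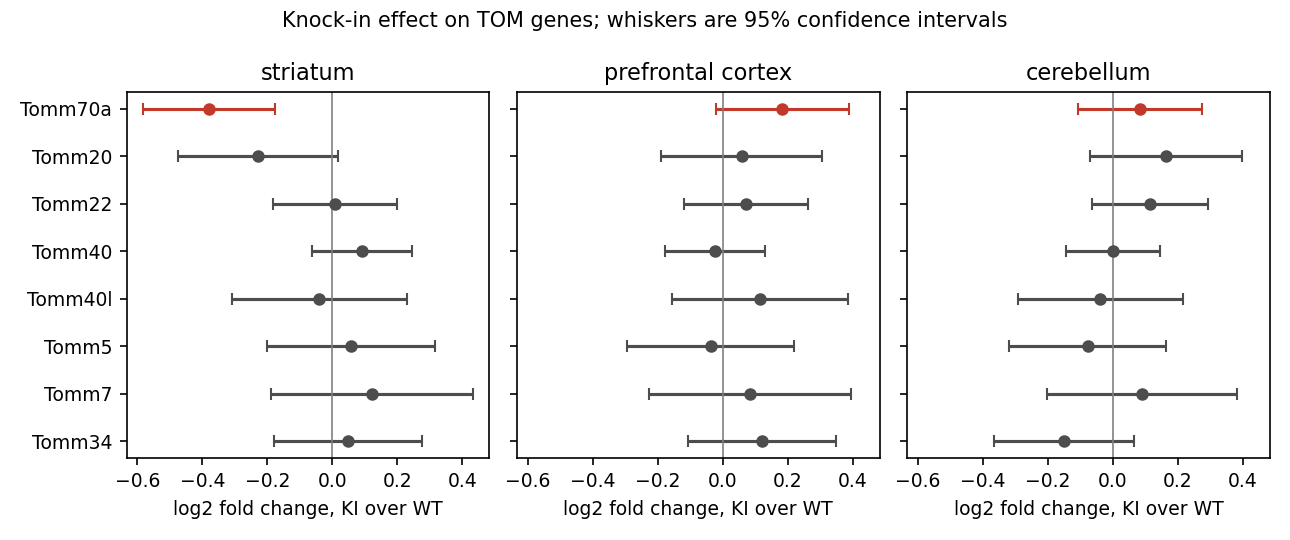
Log2 fold change of KI over WT for the 8 tested TOM genes in the striatum, prefrontal cortex and cerebellum; points are edgeR estimates and whiskers their 95% confidence intervals, not adjusted for the number of genes. The interval of Tomm70a in the striatum, -0.58 to -0.18, is the only one of the 24 that leaves out 0.

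Tomm70a was also set against the other members within each library. The ratio of Tomm70a to the summed CPM of the other tested members was 0.868, 0.914 and 0.780 in the KI striatum and 1.20, 1.05 and 0.992 in WT. These ratios did not overlap, while the summed other members did, at 504 to 604 CPM in KI and 553 to 607 CPM in WT. The ratio of Tomm70a to Tomm20 was 3.04, 2.78 and 2.45 in KI and 3.50, 3.05 and 2.63 in WT. Here the groups overlapped, so these libraries do not separate Tomm70a from Tomm20, whereas Tomm70a over Tomm40 was 4.73 to 6.15 in KI and 7.07 to 7.90 in WT.

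In the other regions the estimates for Tomm70a were above 0 and not called. The KI cerebellum had 204, 191, 169 and 183 CPM and the WT cerebellum 176, 171 and 182 CPM, a log2 fold change of 0.08 (SE 0.09, adjusted p = 0.846) with overlapping groups. The KI prefrontal cortex had 237, 265 and 218 CPM and the WT prefrontal cortex 226, 197 and 211 CPM, a log2 fold change of 0.18 (SE 0.10, adjusted p = 0.893). KI replicate 2 was the highest library there, and WT replicate 1 lay above the lowest KI library.

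An interaction term compared the KI effects of 2 regions. For Tomm70a the difference was -0.46 between striatum and cerebellum (SE 0.13, unadjusted p = 0.00285, adjusted p = 0.380) and -0.56 between striatum and prefrontal cortex (SE 0.14, unadjusted p = 7.23e-04, adjusted p = 0.812). Neither was called, in comparisons where edgeR called 0.0119% and 0% of all tested genes. Among the 8 TOM genes 2 (Tomm70a and Tomm20) and 1 (Tomm70a) had an unadjusted p under 0.05 by edgeR. Of all 16841 tested genes 1126 and 743 had one. DESeq2 and limma called 0 of the 8 in each. For Tomm20 the difference was -0.39 (SE 0.16, adjusted p = 0.636) against the cerebellum and -0.29 (SE 0.17, adjusted p = 1.00) against the prefrontal cortex. Both interactions share the striatal libraries.

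No other member was called outside the striatum. In the cerebellum edgeR called 0 of 8 members, against 0.831% of all tested genes, none had an unadjusted p under 0.05, and DESeq2 and limma called 0. Tomm34 was the one member whose groups did not overlap there, with 59.4, 62.0, 61.5 and 62.7 CPM in KI and 66.5, 68.4 and 69.4 CPM in WT, beside 12.3% of all tested genes. Its log2 fold change was -0.15 (SE 0.10, adjusted p = 0.695), and the exact permutation test gave p = 0.0286, the smallest that 4 against 3 libraries allow, before any adjustment. In the same libraries the summed markers of Purkinje cells were 3739 to 5205 CPM in KI and 5977 to 6416 CPM in WT. Those of astrocytes were 5894 to 7354 and 7677 to 7898 CPM, and those of microglia 200 to 278 and 139 to 142 CPM. By gene, 7 of 7 Purkinje estimates were below 0 (median log2 fold change -0.50), and 0 of 8 microglia estimates (median 0.77). Of these, edgeR called 1 Purkinje marker lower and 6 microglia markers higher. For astrocytes only 2 of 8 were below 0 (median 0.13), so most of these markers did not share the lower sum, and 1 was called lower. Choroid plexus markers summed to 4975 CPM in KI replicate 3 and 1998 CPM in WT replicate 1, and to 31.3 CPM or less in the other cerebellar libraries. The part of these cell types in the values of Tomm34 was not tested. Tomm20 had 92.3 to 108 CPM in the KI cerebellum and 82.1 to 96.5 CPM in WT, a log2 fold change of 0.16 (SE 0.11, adjusted p = 0.687).

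In the prefrontal cortex edgeR called 0 of 8 members, against 0.107% of all tested genes, none had an unadjusted p under 0.05, and DESeq2 and limma called 0. The groups of Tomm40l did not overlap, with 22.5, 23.6 and 22.5 CPM in KI and 22.0, 21.2 and 20.2 CPM in WT, beside 8.69% of all tested genes. Its log2 fold change was 0.12 (SE 0.13, adjusted p = 0.968), and it shares 3304 exonic bases with Nr1i3 on the opposite strand, in libraries whose kit does not mark strand. The remaining estimates in this region, leaving out Tomm70a, lay between -0.04 and 0.12.

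WT mice showed the larger differences in TOM genes, between regions. Tomm70a in the WT striatum was at 627 ± 34.3 CPM, in the prefrontal cortex at 211 ± 14.7 CPM and in the cerebellum at 176 ± 5.60 CPM (SD, n = 3 each). Every striatal library was at 602 CPM or more and every library of the other regions at 226 CPM or less. The striatum exceeded the prefrontal cortex 2.97-fold (log2 1.57, SE 0.10, adjusted p = 2.64e-08), and the cerebellum was at 28.1% of the striatum (log2 -1.83, SE 0.10, adjusted p = 1.27e-10). Between cerebellum and prefrontal cortex the log2 difference was -0.26 (SE 0.10, adjusted p = 0.0329), a call that was lost when WT cerebellum replicate 1, 2 or 3 or WT prefrontal cortex replicate 1 or 3 was left out (adjusted p up to 0.126).

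Tomm20 followed the same regional order. Its mean in WT was 207 ± 19.7 CPM in the striatum, 143 ± 6.03 CPM in the prefrontal cortex and 91.1 ± 7.81 CPM in the cerebellum, and no library of one region overlapped another region. The cerebellum was lower than the striatum by a log2 difference of -1.18 (SE 0.12, adjusted p = 2.47e-07) and lower than the prefrontal cortex by -0.65 (SE 0.12, adjusted p = 1.86e-04), and the striatum was above the prefrontal cortex by 0.53 (SE 0.12, adjusted p = 0.00241). Tomm22, which docks both receptors, had no called difference, with 77.8 ± 3.15, 78.7 ± 3.46 and 72.3 ± 4.72 CPM in the striatum, prefrontal cortex and cerebellum, with 95% confidence intervals of the log2 difference from the striatum of -0.21 to 0.17 for the prefrontal cortex and -0.30 to 0.08 for the cerebellum.

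Tomm34 was low in the cerebellum, with 68.1 ± 1.46 CPM against 107 ± 11.9 CPM in the striatum (log2 -0.65, SE 0.11, adjusted p = 7.84e-05) and 118 ± 18.9 CPM in the prefrontal cortex (log2 -0.79, SE 0.11, adjusted p = 1.18e-05). Tomm40l was called lower in the cerebellum than in the striatum (19.4 against 24.6 CPM, log2 -0.34, SE 0.13, adjusted p = 0.0336), a call lost without WT cerebellum replicate 2 or 3 or WT striatum replicate 2 or 3 (adjusted p up to 0.124). The pore gene Tomm40 had 84.4, 93.0 and 87.9 CPM in the striatum, prefrontal cortex and cerebellum, with no called difference. EdgeR called none for Tomm5 and Tomm7 either, with adjusted p from 0.0715 to 0.939 over the 3 regional comparisons. Tomm7, at 42.3 CPM in the cerebellum and 53.0 CPM in the striatum (log2 -0.32, SE 0.15), was however called lower in the cerebellum by DESeq2 (adjusted p = 0.0489), and with a replicate block its adjusted p was 0.0238 against the striatum and 0.0306 against the prefrontal cortex. That block pairs cerebellar libraries with those of other regions by replicate number, a pairing that the data did not bear out (correlations of -0.10 to 0.16 with the striatum and -0.06 to 0.08 with the prefrontal cortex).

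Over the tested members, 4 of 8 were called lower in the cerebellum than in the striatum, 3 of 8 were called lower in the cerebellum than in the prefrontal cortex and 2 of 8 were called higher in the striatum than in the prefrontal cortex, with 0 called in the opposite direction each time. Of all tested genes 56.5%, 52.0% and 30.5% were called in these comparisons, so the share of members called is no higher than the background in any of the 3. The 3 comparisons share WT libraries.

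**Figure D3:**
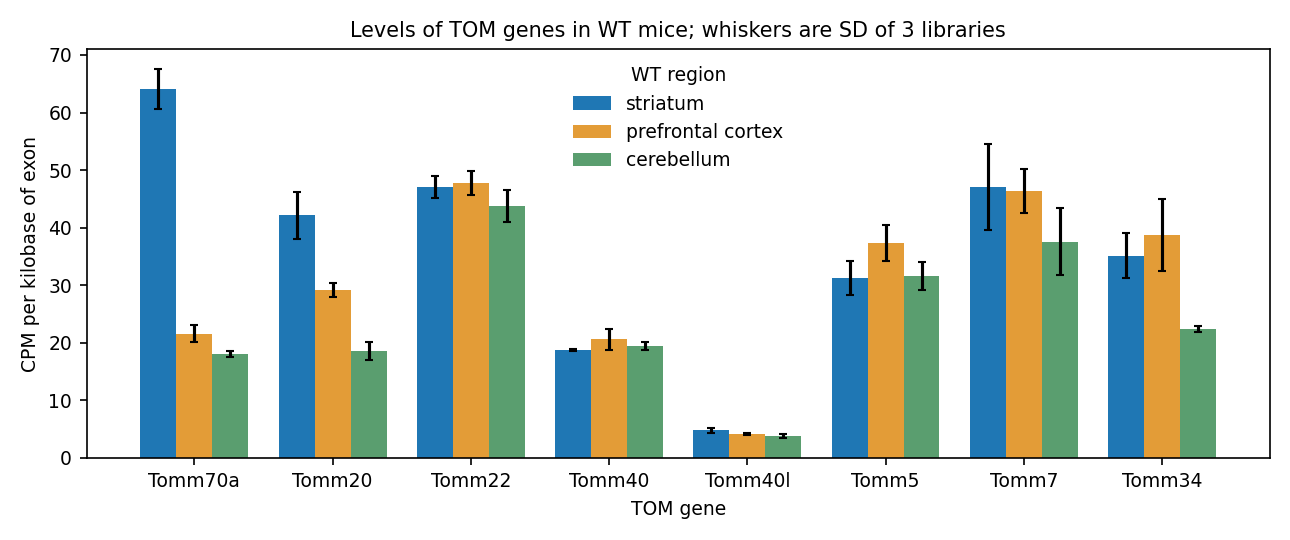
CPM per kilobase of exon of the 8 tested TOM genes in WT striatum, prefrontal cortex and cerebellum; bars are means of 3 libraries and whiskers their SD. Tomm70a is the highest bar in the striatum, at 64.1, and falls to 21.6 and 18.0 in the other regions, while Tomm22 lies between 43.8 and 47.7 and Tomm40 between 18.7 and 20.6.

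Per kilobase of exon the order of the members changed with the region. In the WT striatum Tomm70a was first, at 64.1 ± 3.51 CPM per kilobase, with no overlap above Tomm22 (47.1), Tomm7 (47.1) and Tomm20 (42.1). These 3 overlapped one another, and below them, again without overlap, came Tomm34 (35.1), Tomm5 (31.2), Tomm40 (18.7) and Tomm40l (4.78). In the WT prefrontal cortex Tomm70a was in place 6 at 21.6 CPM per kilobase, overlapping Tomm40 at 20.6, and in the WT cerebellum in place 7 at 18.0, overlapping Tomm20 at 18.6. Its share of the members' summed CPM per kilobase was 21.4% to 23.3% in the WT striatum and 8.08% to 9.71% in the other WT regions. In the KI striatum that share was 18.0%, 19.2% and 16.2%, below every WT striatal library and above every library of the other regions. The place depends on the length used: by coding length Tomm70a was in place 2 in the striatum and 4 in both other regions. It has 1833 coding bases of 9777 exon bases, and Tomm20, first by coding length in the striatum, 435 of 4906.

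The 6 groups of region and genotype were ordered by their mean level of Tomm70a. WT striatum was highest, KI striatum next at 482 CPM, and each was separated from the next group by a gap between libraries. KI prefrontal cortex (240 CPM), WT prefrontal cortex (211 CPM), KI cerebellum (187 CPM) and WT cerebellum (176 CPM) followed, and each of these overlapped its neighbour in the order. Groups further apart in the order could still be separate. WT cerebellum (171 to 182 CPM) lay below WT prefrontal cortex (197 to 226 CPM), and KI prefrontal cortex (218 to 265 CPM) lay above both cerebellar groups.

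Markers of striatal projection neurons were lower in the KI striatum beside Tomm70a. Their summed level, over 10 genes, was 5689, 8127 and 6329 CPM in KI and 12009, 12234 and 10544 CPM in WT. The groups did not overlap, and KI replicate 2 was the highest KI library for these markers as it was for Tomm70a and Tomm20. The WT striatal libraries did not share an order: replicate 2 had the highest sum, but replicate 1 the highest Tomm70a (666 CPM, against 612 CPM in replicate 2). The median log2 fold change of the 10 markers was -0.69, 9 of 10 estimates were below 0, and 0 were called by edgeR, with 2 at an unadjusted p under 0.05. The smallest adjusted p was 0.0542, that of Pde10a, which is also one of the genes named by the study. In the prefrontal cortex the same sum was 786, 1199 and 240 CPM in KI and 393, 321 and 906 CPM in WT, with overlapping groups. KI replicate 2 was highest both in it and in Tomm70a. Among the WT libraries replicate 3 had the highest sum, but replicate 1 the highest Tomm70a (226 CPM, against 211 CPM in replicate 3). There 0 of the 10 marker estimates were below 0, with a median log2 fold change of 0.64 and 0 called. The part of this cell type in the level of Tomm70a was not tested.

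**Figure D4:**
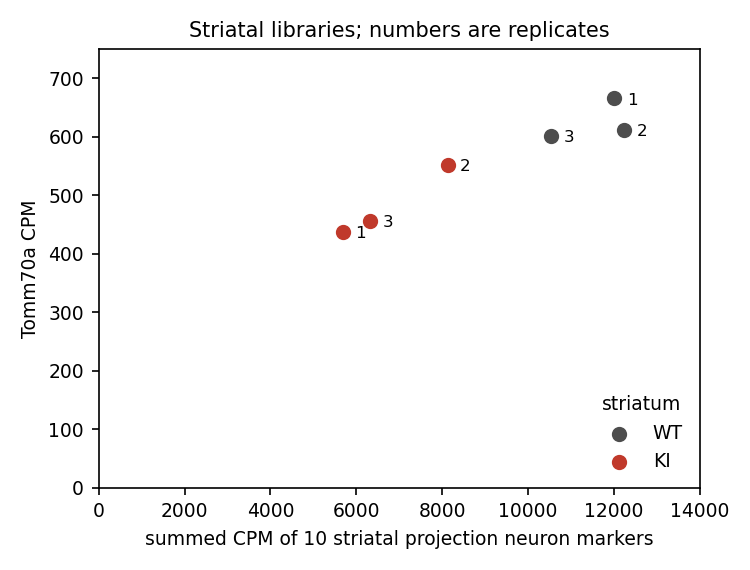
Tomm70a CPM against the summed CPM of 10 markers of striatal projection neurons in the 6 striatal libraries; numbers beside the points are replicate numbers. The 3 KI libraries (5689 to 8127 CPM of markers, 437 to 552 CPM of Tomm70a) lie below and to the left of the 3 WT libraries (10544 to 12234 CPM, 602 to 666 CPM).

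Purkinje cell markers, several of which striatal neurons also express (Calb1, Pcp4, Itpr1), were likewise lower in sum in the KI striatum without overlap, at 828 to 1165 CPM in KI and 1173 to 1332 CPM in WT, with 5 of 7 estimates below 0 and 0 called. The other lists overlapped between genotypes there. The summed markers of cortical excitatory neurons (230 to 280 CPM in KI, 161 to 391 CPM in WT), astrocytes (3295 to 4009 CPM in KI, 3721 to 3996 CPM in WT), oligodendrocytes (9660 to 21950 and 12996 to 18673 CPM), microglia (642 to 724 and 631 to 739 CPM) and endothelial cells (170 to 184 and 171 to 209 CPM) all overlapped, as did the granule cell markers, all at 48.1 CPM or less. KI replicate 2 had the lowest oligodendrocyte sum of the striatal libraries, 9660 CPM, beside 21950 and 19672 CPM in KI replicates 1 and 3. Choroid plexus markers varied from 1565 to 9051 CPM over the 6 striatal libraries, also overlapping. The share of counts on the mitochondrial genome was 1.81% to 2.01% in the KI striatum and 1.70% to 1.98% in WT.

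The tested genes whose log2 CPM was most like that of Tomm70a over the 19 libraries were Ppp1r7 (Pearson r = 0.990), Cyld (0.990), St8sia3 (0.989), Ppp2r2a (0.989) and Gnal (0.988). Gnal encodes the stimulatory G protein subunit of striatal neurons, Ppp1r7 and Ppp2r2a regulatory subunits of phosphatases, Cyld a deubiquitinase and St8sia3 a sialyltransferase. Each was 2.68-fold to 5.47-fold higher in the WT striatum than in the WT cerebellum. The 19 points share regions, so these r are a description of levels across regions. In the KI striatum their log2 fold changes ran from -0.20 to -0.56, and St8sia3 was called (adjusted p = 0.0317). Among the TOM genes, Tomm20 was most like Tomm70a (r = 0.871), then Tomm40l (0.693), and Tomm40 had r = -0.23.

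The study names 4 further genes beside Tomm70a, and they are no independent evidence, being chosen on these libraries. Kcnab1, a potassium channel subunit, was called lower in the KI striatum (log2 -0.69, SE 0.13, adjusted p = 0.0209), as was Cacna2d3, a calcium channel subunit (log2 -0.63, SE 0.13, adjusted p = 0.0317). Either call was lost without KI replicate 1, KI replicate 3, WT replicate 2 or WT replicate 3, and that of Cacna2d3 also without WT replicate 1 (adjusted p up to 0.189). Pde10a, a striatal phosphodiesterase, had a log2 fold change of -1.02 (SE 0.23, adjusted p = 0.0542), and Camk2b, a neuronal kinase subunit, -0.42 (SE 0.11, adjusted p = 0.105). Of the 5 estimates that of Tomm70a, -0.38, was the smallest in absolute size.

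The rest of the import pathway was given by 44 genes, all tested. In the striatum edgeR, DESeq2 and limma called 0, where edgeR called 0.582% of all tested genes and DESeq2 1.27% of those with an adjusted p. By edgeR 3 of the 44 had an unadjusted p under 0.05, beside 1368 of all 16841 tested genes. The median log2 fold change was 0.02, beside -0.01 over all tested genes. Timm44, which tethers the import motor to the inner membrane channel, had the lowest estimate and the smallest p, with 45.1 to 55.3 CPM in KI and 59.0 to 64.0 CPM in WT (log2 -0.27, SE 0.10, adjusted p = 0.370). The next smallest p belonged to Chchd4, the oxidoreductase of the intermembrane space (log2 -0.19, SE 0.07, adjusted p = 0.462), and Mtx1, a metaxin of the outer membrane sorting machinery (log2 -0.22, SE 0.10, adjusted p = 0.606).

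By role, edgeR called 0 import genes in any group in the striatum, beside 0.582% of all tested genes. The 6 genes of outer membrane insertion had a median log2 fold change of -0.11, the 9 of the intermembrane space 0.03, the 3 of the TIM22 carrier translocase -0.05 and the 6 of the TIM23 presequence translocase 0.03. The 7 genes of the import motor had a median of 0.03, the 6 of presequence processing -0.01 and the 7 cytosolic chaperones 0.08. Timm22, the channel that takes in the carriers delivered through TOM70, had a log2 fold change of 0.10 (SE 0.09), and its partners Timm29 and Agk -0.11 (SE 0.07) and -0.05 (SE 0.08). Hsp90aa1, a chaperone that hands precursors to TOM70, had 394 to 450 CPM in the KI striatum and 374 to 418 CPM in WT (log2 0.12, SE 0.09, adjusted p = 0.818). The members, the import list and 16 other abundant outer membrane proteins made up 68 tested genes. Among these 68, Tomm70a had the lowest estimate and the smallest p in the striatum. The study lists Tomm70a as downregulated there from these same libraries, so this rank is no independent evidence. Over all 16841 tested genes Tomm70a was in place 168 by edgeR p. Its estimate of -0.38 lay above the 0.05 quantile of all estimates in the striatum, -0.56.

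**Figure D5:**
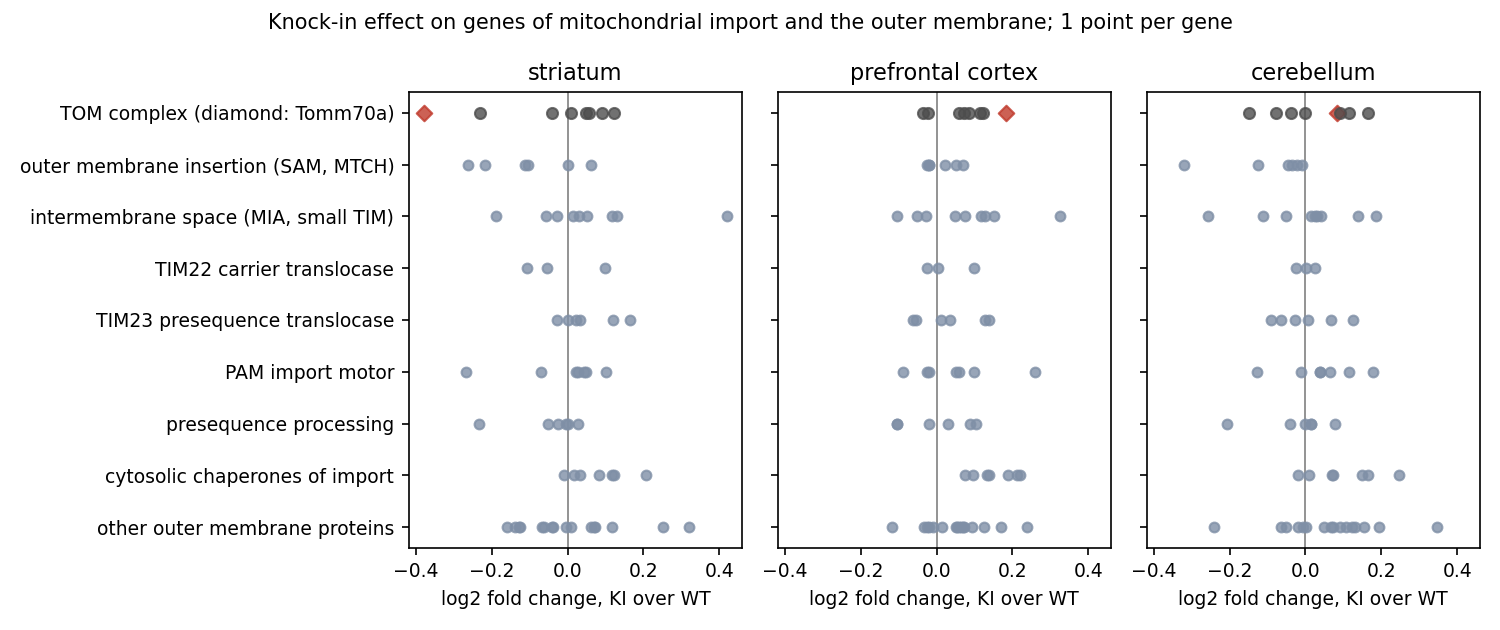
Log2 fold change of KI over WT in 3 regions for the 8 tested TOM genes (top row, diamond for Tomm70a), 44 import genes by role and 16 other outer membrane proteins (bottom row); each point is 1 gene, without its error. Tomm70a is the leftmost point in the striatum, at -0.38, and lies right of 0 in the prefrontal cortex and cerebellum.

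In the cerebellum and prefrontal cortex edgeR, DESeq2 and limma called 0 of the 44 import genes. Of all tested genes edgeR called 0.831% in the cerebellum and 0.107% in the prefrontal cortex, so few calls would be met in a list of this length. By edgeR 2 and 1 had an unadjusted p under 0.05, beside 1705 and 998 of all 16841 tested genes in these regions. The smallest p in both belonged to Hsp90aa1, with a log2 fold change of 0.25 (SE 0.09, adjusted p = 0.289) in the cerebellum and 0.22 (SE 0.09, adjusted p = 0.792) in the prefrontal cortex. Timm10b had -0.26 (SE 0.11, adjusted p = 0.404) in the cerebellum, and Pam16, a regulator of the import motor, 0.26 (SE 0.13, adjusted p = 0.861) in the prefrontal cortex.

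Of the 16 other outer membrane proteins edgeR called 0 in each region. Of all tested genes it called 0.582% in the striatum, 0.831% in the cerebellum and 0.107% in the prefrontal cortex. In the striatum, cerebellum and prefrontal cortex 2, 2 and 0 had an unadjusted p under 0.05, beside 1368, 1705 and 998 of all 16841 tested genes. Mfn2, a fusion factor, had 284 to 304 CPM in the KI striatum and 324 to 342 CPM in WT (log2 -0.16, SE 0.07, adjusted p = 0.568). Armcx3, a protein of mitochondrial transport in neurons, had a median of 38.7 CPM over the 4 KI cerebellar libraries and of 31.3 CPM over the 3 WT libraries, without overlap. Its log2 fold change was 0.35 (SE 0.09), with an adjusted p of 0.0819 by edgeR and 0.0244 by DESeq2, which called 2.08% of the genes there and called no other gene of this list in any region; limma called 0.

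Between WT regions import genes were called in both directions. Of the 44 genes 8 were called higher and 12 lower in the cerebellum than in the striatum, a smaller share than the 56.5% of all tested genes, with a median log2 difference of -0.06. Against the prefrontal cortex 9 were called higher and 9 lower in the cerebellum, beside 52.0% of all tested genes. Among the named genes Mtch1, an outer membrane insertase, had the lowest value after Tomm70a, with a mean of 251 CPM in the WT cerebellum and of 706 CPM in the WT striatum (log2 -1.49). In the striatum against the prefrontal cortex 3 of 44 were called higher and 2 lower, beside 30.5% of all tested genes, and none reached the log2 difference of 1.57 of Tomm70a, the highest being 0.63.

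Tomm70a lies on chromosome 16 from 57121703 to 57156705 on the + strand in GRCm38, and 41 of its exonic bases are shared with Nit2 on the opposite strand. Nit2, an amidase, had 16.8, 24.7 and 20.4 CPM in the KI striatum and 24.2, 23.3 and 27.0 CPM in WT, a log2 fold change of -0.27 (SE 0.15, adjusted p = 0.695). It held 248 to 337 counts in the KI striatal libraries, against 6469 to 7534 of Tomm70a. Tomm40 shares 258 exonic bases with the antisense gene Gm20512.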

How the data were processed

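Per the labels, total RNA was extracted with Trizol and libraries were made with SMART-Seq v4 and Nextera XT, which do not mark strand. The submitters' processing notes name bcl2fastq 2.17.1.14, STAR 2.5.2b, HTSeq, DESeq2 1.10.1 and GRCm38.p3; the study's methods name Cufflinks and Cuffdiff. The annotation release and strand setting are not given in the sources used here. The authors deposited a table of raw counts per Ensembl gene and a signal table, the same counts divided by 1 size factor per library. Names and lengths came from GENCODE M21, which matched 40254 of 41128 identifiers.

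The counts were fitted with edgeR 4.0.16 under R 4.3.3: filterByExpr, TMM, and 1 quasi-likelihood fit (glmQLFit, glmQLFTest) of all 19 libraries over 6 groups of region and genotype, with Benjamini-Hochberg adjustment over 16841 genes at 0.05. Log2 CPM used a prior count of 2. Alternatives were DESeq2 1.42.0, its size factors, 2 filters, each region alone, a replicate block, a sex covariate from Xist and Y-linked counts, limma 3.58.1 on log2(deposited signal + 1) of genes with a mean of at least 10, and each library left out. The fits were tested on simulated counts. Intervals are at 95%. The study gives its groups as numbers of mice; the labels tie no library to a mouse or a sex. Deviations of same-numbered striatal and prefrontal libraries correlated at 0.23 to 0.37 (6 of 6 pairs over 0.1), so these numbers were taken as pairs from the data, and a replicate block over those 12 libraries, chosen after seeing the data, was added.

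The members and gene lists were chosen with earlier results of these data known. All 9 members are named; of the lists, genes past 0.05 in a knock-in comparison and those with the smallest p of each role and region could be named, with the study's 4 genes, the 5 genes most correlated with Tomm70a and Tbp. Nit2, Gm21981, Nr1i3 and Gm20512 were named for their overlap.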

Additional observations from a re-analysis of the deposited data

Results flagged for a closer look

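In the KI cerebellum, the only group of over 3 libraries, the level of Tomm40 had 1 library apart from the others. Replicate 2 had 97.6 CPM and the other 3 had 83.8, 84.3 and 86.1 CPM, a gap of 0.836 of the whole range, above Dixon's 95% critical value for 4 libraries. Of the 8 tested members this was the only one past it, and chance flags about 1 in 20 groups. Without this library the log2 fold change of Tomm40 in the cerebellum was -0.05 (SE 0.07, adjusted p = 0.923 by edgeR), beside 0.00 with it.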

How the results depend on the processing

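In the striatum Tomm70a kept a log2 fold change below 0 in every alternative. Its adjusted p was 0.0219 with DESeq2 (value -0.38), which made 1 member called in place of 0, and 0.0622 to 0.380 in the other fits of all 6 libraries; the lowest of these was with the sex covariate (-0.42). Leaving out each striatal library gave -0.49 to -0.31 and adjusted p from 0.0260 to 0.473, with 0 to 1 members called; the call came only without KI replicate 2. With the replicate block the value was -0.39 (adjusted p = 0.256), and 0 members were called in each region. Replicate numbers did not pair KI with WT libraries of a region (deviations correlated at -0.25 to 0.17, 2 of 9 pairs over 0.1) or the cerebellum with the striatum (-0.10 to 0.16, 2 of 6) or prefrontal cortex (-0.06 to 0.08, 0 of 6). For the striatum and prefrontal cortex pairs were taken from such correlations, and the labels do not give them. The block over their libraries alone changed no call: the Tomm70a interaction was -0.56 (adjusted p = 0.943) and its WT difference 1.57 (3.44e-05), and Tomm20 and Tomm70a stayed the 2 members called. Over all regions the block changed the calls of Kcnab1 (adjusted p = 0.0598), Cacna2d3 (0.0665), and Tomm7 in WT cerebellum against striatum (0.0238) and prefrontal cortex (0.0306), and no other call of a TOM gene.

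The rank of Tomm70a per length became 2 (striatum), 4 (cerebellum) and 4 (prefrontal cortex) by coding length and 1 in the cerebellum and 1 in the prefrontal cortex by CPM. Estimates near 0 turned their sign with no call on either side. For Tomm40 in the KI cerebellum the value was -0.0046 with DESeq2, -0.0048 with its size factors, -0.0005 without the filter, -0.0086 with 10 counts required, -0.0163 with the sex covariate and -0.0054 with limma. For Tomm5 in WT cerebellum against striatum it was -0.0036, -0.0022, -0.0182 and -0.0019 with DESeq2, its size factors, 10 counts and limma. Leaving out libraries, the range crossed 0 in the KI cerebellum for Tomm40 (-0.0541 to 0.0276) and Tomm40l (-0.1590 to 0.0420); in the KI striatum for Tomm22 (-0.0493 to 0.0883), Tomm40l (-0.1159 to 0.0265), Tomm5 (-0.0624 to 0.1441), Tomm7 (-0.0005 to 0.2012) and Tomm34 (-0.0364 to 0.1344); in the KI prefrontal cortex for Tomm20 (-0.0649 to 0.1339), Tomm22 (-0.0270 to 0.1408), Tomm40 (-0.0850 to 0.0400), Tomm5 (-0.1223 to 0.0555) and Tomm7 (-0.0355 to 0.1484); and between WT regions for Tomm5 in cerebellum against striatum (-0.0520 to 0.0792) and, in striatum against prefrontal cortex, for Tomm22 (-0.0520 to 0.0157) and Tomm7 (-0.0436 to 0.1608). Without the filter the WT calls of Tomm40l in cerebellum against striatum (adjusted p = 0.0885) and of Tomm70a in cerebellum against prefrontal cortex (0.0788) were lost. Tomm7 in cerebellum against striatum was called with DESeq2 (0.0489), with 10 counts required (0.0440), and without WT cerebellum replicate 2 or WT striatum replicate 3. With each region alone Kcnab1 (0.0743) and Cacna2d3 (0.115) were not called in the striatum, nor was Cacna2d3 with the sex covariate (0.0612). The causes were not tested. Tomm6 held too few counts to be tested, and its reads cannot be told apart from those of Gm21981 where the exons are shared. Gm21981 was itself low, with group means from 0.18 CPM (KI striatum) to 0.35 CPM (WT striatum). Whether reads on the shared exons were left uncounted was not tested, so the low counts are no measure of Tomm6 expression.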
